A study of Mus musculus with 4 samples.

Results

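Glycolysis and glycogen turnover were followed through 34 genes, chosen by symbol from the 49585 genes counted, all of which had fragments in every library. They cover the enzymes from hexokinase to lactate dehydrogenase, with muscle and non-muscle isoforms, the enzymes that build and break down glycogen, and regulators of phosphofructokinase and of pyruvate dehydrogenase. The cells were C2C12, a mouse (strain C3H) myoblast line that fuses into myotubes after serum withdrawal. Control cells carried the empty retroviral vector pLXSN and the others a retrovirus for C/EBPβ, a transcription factor of fat cell and acute-phase genes, with 2 libraries in each group. Both groups were G418-resistant pools (1200 µg/ml, 7 days) taken 2 days into differentiation in 2% horse serum, so both had been transduced and drug-selected. Whether the 2 libraries of a group stem from different cultures is not in the labels; the p-values thus reflect only library-to-library spread, possibly technical.

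Glycolysis splits glucose to pyruvate for a small, fast yield of ATP, and lactate dehydrogenase turns pyruvate to lactate when oxidation cannot keep pace. Muscle stores glucose as glycogen and frees it through glycogen phosphorylase when contraction starts. Several steps have an isoform typical of muscle (PFKM, PGAM2, ENO3, PYGM) beside forms found in most cells, in liver or in brain, and myoblasts take up the muscle forms as they differentiate.

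The libraries held 36461091 to 51537847 fragments assigned to genes. The 34 genes took 0.823% and 0.846% of them in the controls and 0.605% and 0.677% in the C/EBPβ libraries. Cebpb stood at 42.7 and 41.3 CPM (fragments scaled by TMM to a common library size) in the controls and at 502 and 442 CPM in the C/EBPβ libraries, as labelled. Of 12 genes of muscle differentiation 11 fell, against 20.9% of all genes tested. The summed level of the 12 was 25359 and 28023 CPM in the controls against 6968 and 11224 CPM in C/EBPβ replicates 1 and 2. Myog, a driver of terminal differentiation, fell by 1.45 on the log2 scale, Ckm, muscle creatine kinase, by 1.93 and Myh3, embryonic myosin, by 2.34. Markers of other cells also moved, where 22.3% of all genes tested rose and 20.9% fell. The 8 macrophage markers summed to 3.72 and 3.48 CPM in the controls against 32.9 and 30.5 CPM, mostly Lyz2, with Adgre1 and Fcgr1 at 0. Of 5 tested 2 were higher and 1 lower, Itgam, from 0.426 and 0.514 to 0.0383 and 0.219 CPM. The 8 adipocyte markers summed to 9.63 and 8.03 against 20.7 and 15.6 CPM, mostly Pparg, with Lep at 0. Lyz2, Fabp4 and Plin1 lay below 0.208 CPM in both controls, the level needed in 2 libraries, so they were tested only through the C/EBPβ group. The 6 fibro-adipogenic markers summed to 4460 and 3552 against 12811 and 12608 CPM, mostly Col3a1, with 2 of 5 tested higher and 1 lower. Endothelial markers stayed at or below 0.831 CPM in sum (1 of 1 tested fell, Emcn at 0) and hepatocyte markers at or below 0.115 CPM, with Alb at 0. In such bulk RNA a smaller number of muscle-like cells and less RNA per cell cannot be told apart, and the part of differentiation or of other cells in the values below was not tested.

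All 34 genes passed the filter on low counts, Pygl through the C/EBPβ group, since its controls lay under the floor of 0.208 CPM. Of the 34 genes, 10 fell and 9 rose at an adjusted p under 0.05 in edgeR's quasi-likelihood test, which is 29.4% and 26.5% of them. Over all 15886 genes tested, 20.9% fell and 22.3% rose, and 43.2% changed in either direction, against 55.9% of the 34. Their median log2 fold change was -0.10, near the 0.01 of all genes tested. Changes of at least 2-fold were found for 4 genes that fell (Pgam2, Pygm, Pfkm and Eno3) and 4 that rose (Pygl, Ppp1r3c, Pfkfb3 and Aldoc). The fallers were Pfkm, Aldoa, Gapdh, Pgam2, Eno3, Ldha, Pygm, Phka1, Gys1 and Gyg, and the risers Pfkl, Aldoc, Ldhb, Pygl, Pygb, Phkb, Ugp2, Pfkfb3 and Ppp1r3c. Without empty-vector replicate 2, only 6 fell and 7 rose; 11 of the 19 calls held whichever library was left out.

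**Figure D1:**
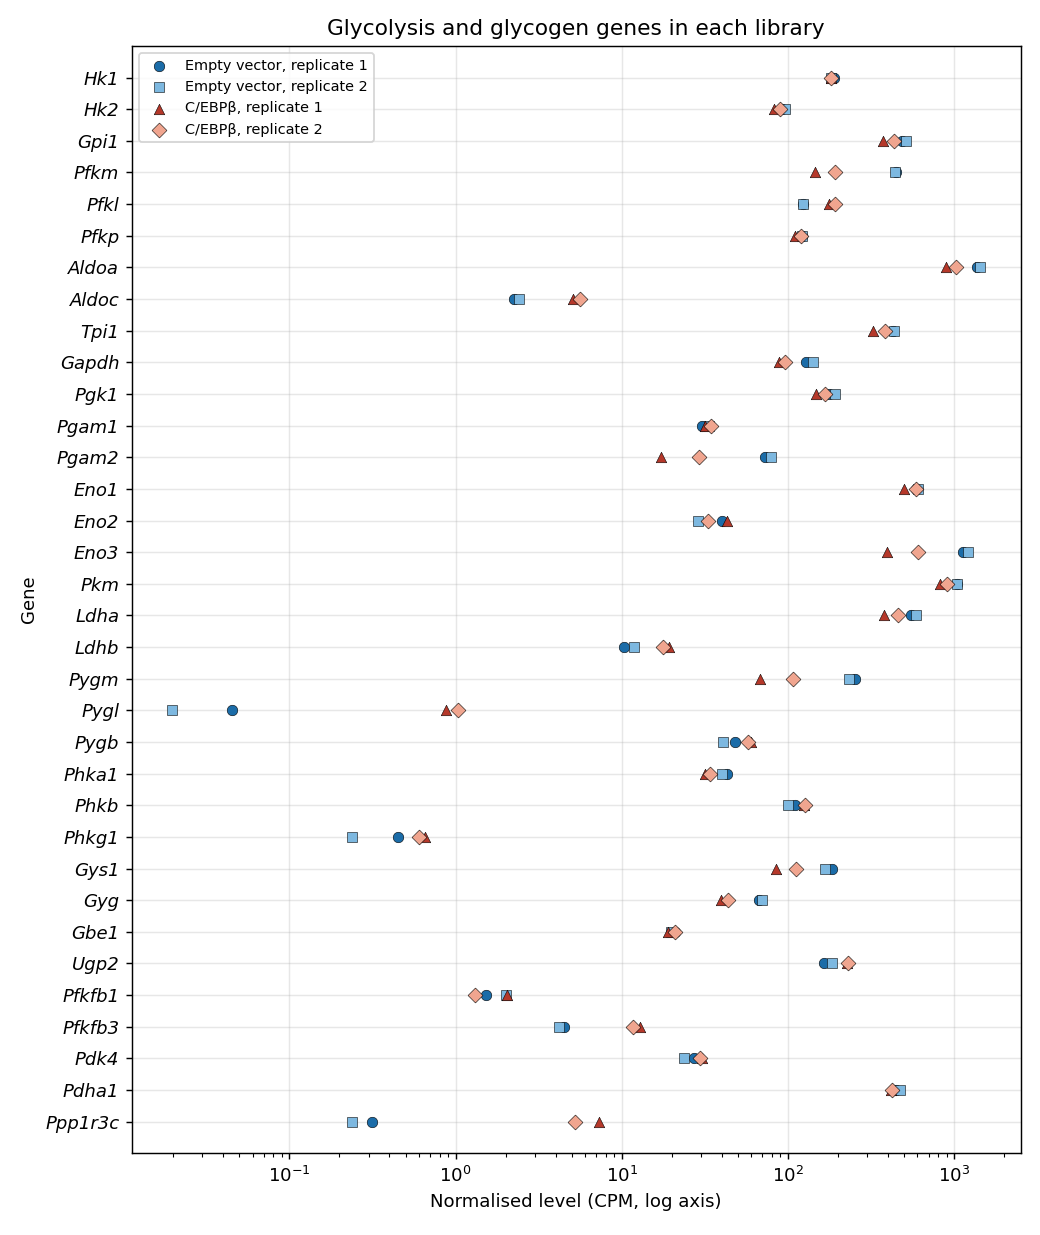
Level of each of the 34 genes in CPM (log axis) in the 4 libraries, genes ordered along the pathway. Pfkm, Pgam2, Eno3 and Pygm lie lower in both C/EBPβ libraries than in both controls, Pygl and Ppp1r3c rise from below 0.5 CPM, and the 4 points of Hk1 and Gbe1 overlap.

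The first enzymes of the pathway, Hk1, Hk2 and Gpi1, did not pass the test. Hk1, the hexokinase of most tissues, was counted at 190 and 181 CPM in the controls and 181 and 182 CPM in the C/EBPβ libraries. Hk2, the insulin-responsive hexokinase of muscle, stood at 91.5 and 95.9 against 82.4 and 89.2 CPM (log2 fold change -0.13, SE 0.08, adjusted p = 0.234). The Hk1 groups overlapped, whereas both C/EBPβ libraries lay below the controls for Hk2 by less than the test resolves. Gpi1, which isomerises glucose 6-phosphate, had 486 and 509 CPM against 373 and 435 CPM, with an adjusted p of 0.0579.

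Phosphofructokinase, the main control point of glycolysis, changed in make-up. Pfkm, the muscle subunit (chr15:98092589-98132447, GRCm38), had 448 and 440 CPM in the controls and 145 and 193 CPM in the C/EBPβ libraries. Both C/EBPβ libraries lay far below both controls, a 2.63-fold fall (log2 fold change -1.40, SE 0.14, adjusted p = 0.000259). Pfkl, the liver-type subunit, had 123 and 123 CPM in the controls and 177 and 191 CPM with C/EBPβ, with no overlap (log2 fold change 0.59, SE 0.08, adjusted p = 0.00107). The platelet-type Pfkp held 121 and 122 against 110 and 120 CPM, which missed the threshold (adjusted p = 0.465). On the length-scaled scale (FPKM, CPM per kilobase of exons) Pfkm made up 78.8% and 78.5% of the family in the controls and 48.5% and 53.7% with C/EBPβ, while Pfkl went from 14.5% and 14.7% to 39.9% and 35.8%. The summed level of the family was 191 ± 1.79 FPKM (mean ± SD, n = 2) in the controls and 111 ± 14.5 FPKM with C/EBPβ.

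In the middle of the pathway Aldoa and Gapdh fell, Aldoc rose, and Tpi1 and Pgk1 did not pass. Aldoa, the aldolase of muscle and most cells, fell from 1373 and 1430 CPM to 895 and 1022 CPM (log2 fold change -0.55, SE 0.12, adjusted p = 0.00772), a call lost without empty-vector replicate 2 (adjusted p = 0.0620). Aldoc, the brain aldolase, rose 2.29-fold from 2.24 and 2.39 to 5.05 and 5.61 CPM, and still made up only 0.65% and 0.63% of the family. Gapdh, glyceraldehyde 3-phosphate dehydrogenase, fell from 128 and 141 to 88.7 and 96.3 CPM (log2 fold change -0.54, SE 0.09, adjusted p = 0.00207). For all 3 genes the groups did not overlap. By itself such separation shows little, since an exact permutation of 2 libraries against 2 gives no 2-sided p below 0.333. Its share over all genes was not counted. Tpi1, triose phosphate isomerase, had 429 and 435 CPM against 325 and 382 CPM, and Pgk1, phosphoglycerate kinase, 177 and 192 against 147 and 166 CPM. These also did not overlap, and missed the threshold with adjusted p = 0.0633 for Tpi1 and 0.0795 for Pgk1.

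Gapdh was counted at 32.5 FPKM in the controls, against 157 FPKM for Tpi1. Of the 50-base windows in its transcripts 25.1% also occurred in transcripts of 223 other annotated genes, and fragments that align to several places are left out of the counts. The same measure was 53.9% for Pgk1, 36.2% for Pgam1, 26.0% for Eno1, 25.8% for Pkm, 21.0% for Ldhb, 15.8% for Gpi1, 12.9% for Pdha1 and 11.1% for Phkg1, and under 10% for the other 25 genes. Levels and shares that rest on these 9 genes are uncertain at least to that extent, and the part of shared sequence in any change was not tested. Pkm also shares 15.3% of its exonic bases with Gm49759 on the same strand. Levels in FPKM, and shares made from them, depend as well on the exonic length used. It was 4133 bases for Gapdh, 5379 for Eno1 and 1739 for Eno3.

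Among the mutases and enolases, the muscle isoforms Pgam2 and Eno3 fell and the others did not pass. Pgam2, muscle phosphoglycerate mutase (chr11:5801640-5803733), had 72.6 and 78.6 CPM in the controls and 17.2 and 29.1 CPM in the C/EBPβ libraries. The groups lay far apart, with a 3.29-fold fall that was the largest of the 34 genes (log2 fold change -1.72, SE 0.27, adjusted p = 0.00864). Pgam1, the form of most other tissues, had 30.2 and 33.4 against 31.5 and 34.5 CPM, and its groups overlapped. Pgam2 thus went from 84.0% and 83.7% of the family's length-scaled level to 54.4% and 64.8%. Eno3, muscle enolase (chr11:70657202-70662513), had 1132 and 1209 CPM in the controls against 393 and 607 CPM, a 2.34-fold fall (log2 fold change -1.23, SE 0.20, adjusted p = 0.00373). On the length-scaled scale Eno3 was the most abundant of the 34 genes in the controls, at 673 ± 31.2 FPKM against 373 ± 10.6 FPKM for Aldoa. In CPM, which is not scaled by length, Aldoa stood above Eno3, at 1373 and 1430 CPM. The exons counted span 3762 bases for Aldoa and 1739 for Eno3. With C/EBPβ the Eno3 libraries (226 and 349 FPKM) spanned those of Aldoa (238 and 272 FPKM), so their order in FPKM was no longer resolved. In CPM Aldoa stayed above Eno3, at 895 and 1022 CPM. Eno1, the enolase of most cells, had 587 and 602 against 495 and 584 CPM and Eno2, the neuronal form, 40.2 and 28.7 against 42.7 and 33.1 CPM, and neither passed. Leaving out a control ended the call for Pgam2, with an adjusted p of 0.118 when replicate 1 was dropped and of 0.126 when replicate 2 was.

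At the end of the pathway, Pkm, pyruvate kinase, had 1039 and 1038 CPM in the controls and 815 and 901 CPM with C/EBPβ. The groups did not overlap, and the threshold was missed (log2 fold change -0.28, SE 0.11, adjusted p = 0.0808). Ldha, the lactate dehydrogenase subunit dominant in fast muscle, fell from 547 and 592 to 380 and 462 CPM (log2 fold change -0.44, SE 0.12, adjusted p = 0.0213). Ldhb, the subunit dominant in heart, rose 1.68-fold from 10.3 and 11.9 to 19.3 and 17.8 CPM (adjusted p = 0.00180), although Ldha remained at 90.3% and 92.5% of the family's length-scaled level against 96.2% and 95.9% in the controls. Ldha lost its call without empty-vector replicate 2 (adjusted p = 0.132) and without C/EBPβ replicate 1 (0.0546).

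**Figure D2:**
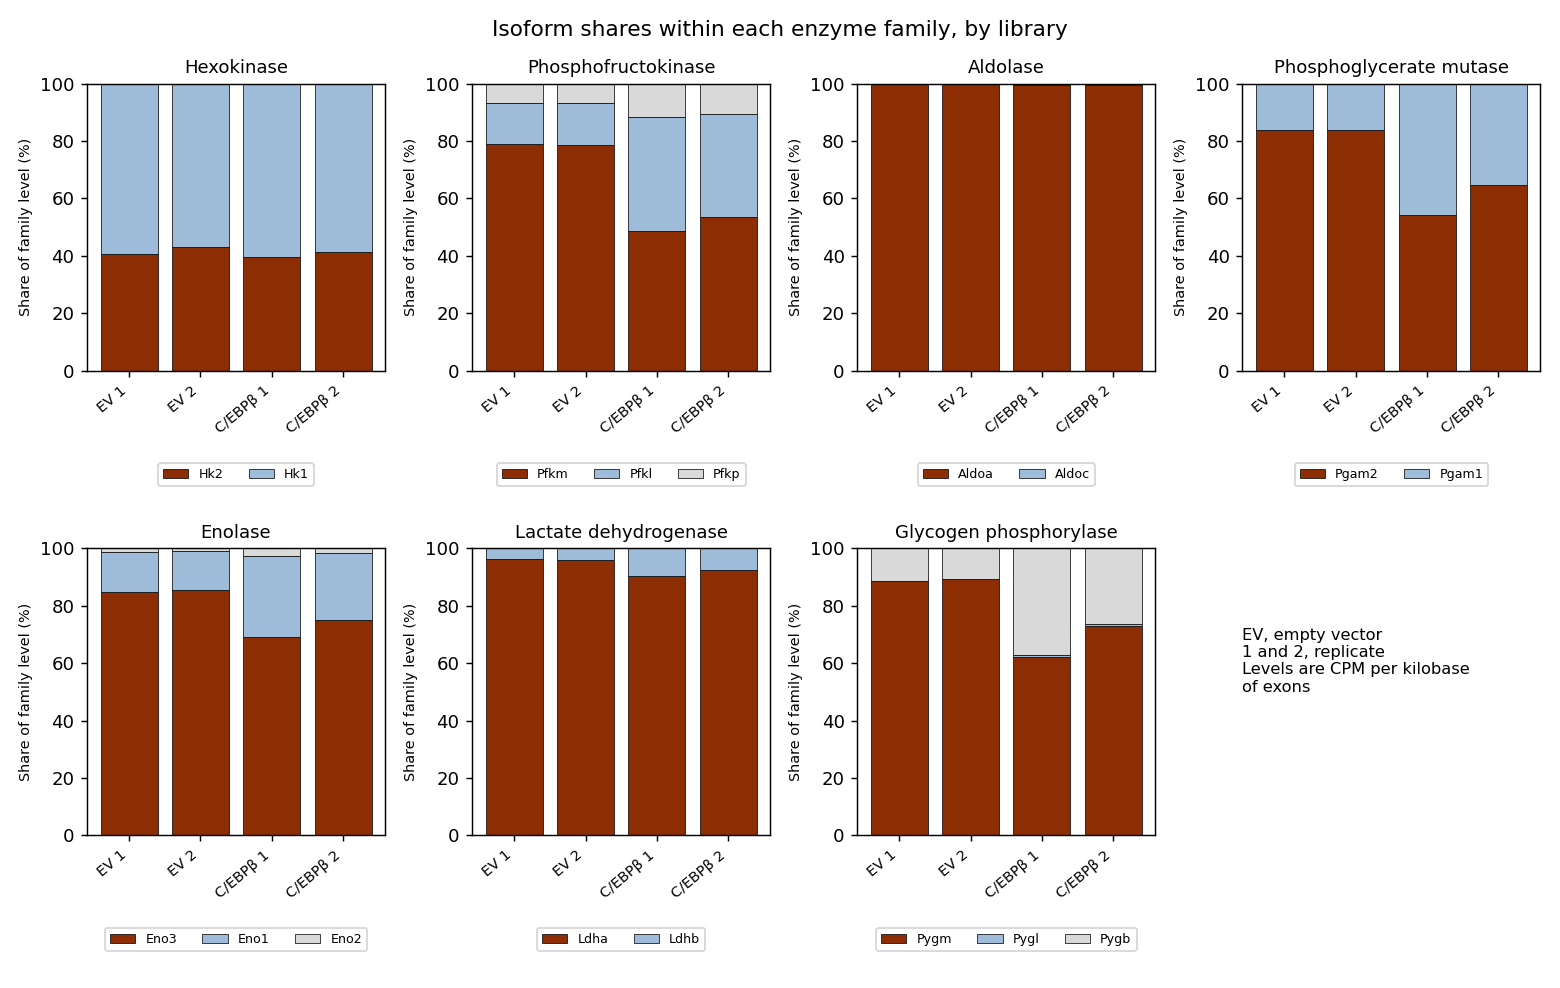
Share of each isoform in the length-scaled level of its enzyme family (percent, stacked to the family total), one bar per library. The dark segment is the isoform taken as muscle-type (Hk2, Pfkm, Aldoa, Pgam2, Eno3, Ldha or Pygm). For phosphofructokinase it covers 78.8% and 78.5% in the controls and 48.5% and 53.7% in the C/EBPβ libraries, while the hexokinase bars differ little.

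In each of the 7 enzyme families with several isoforms, a member was taken as the muscle-type. It fell in 6 (Pfkm, Aldoa, Pgam2, Eno3, Ldha and Pygm) and Hk2 did not pass. Aldoa is also the aldolase of most cells. In the C/EBPβ libraries Aldoa still held 99.4% and 99.4% of its family and Ldha 90.3% and 92.5%. Of the 10 other isoforms 5 rose (Pfkl, Aldoc, Ldhb, Pygl and Pygb), none fell, and Hk1, Pfkp, Pgam1, Eno1 and Eno2 did not pass. Pygl could enter this count only as a riser, since its controls were below the filter. Over all genes tested 20.9% fell and 22.3% rose. The calls of Aldoa, Pgam2, Ldha, Pygm and Pygb were each lost in at least 1 fit without 1 library. The muscle-type share was lower in both C/EBPβ libraries than in both controls in 6 of 7 families, the exception being hexokinase, with Hk2 at 40.8% and 43.0% against 39.4% and 41.2%. Shares were not tested, since an exact permutation of 2 libraries against 2 gives no 2-sided p below 0.333.

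In glycogen breakdown, the phosphorylase isoforms are among those already counted above. Pygm, muscle glycogen phosphorylase (chr19:6384399-6398459), had 252 and 231 CPM in the controls against 67.4 and 107 CPM, a 2.78-fold fall (log2 fold change -1.47, SE 0.23, adjusted p = 0.00572). Pygb, the brain form, rose from 48.0 and 40.7 to 59.9 and 57.7 CPM (adjusted p = 0.00953). Pygm held 88.7% and 89.5% of the family's length-scaled level in the controls and 62.3% and 73.0% with C/EBPβ. Pygl, the liver form (chr12:70190811-70231488), rose from 3 fragments in the 2 controls together to 84 in the C/EBPβ libraries. This is a ratio of 30.0 with a 95% exact binomial interval from 9.92 to 148, which covers counting error only (log2 fold change 4.80, SE 0.49, adjusted p = 0.000219). Even so it stayed at 0.881 and 1.04 CPM and at most 0.68% of the family.

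Phosphorylase kinase, which switches phosphorylase on, moved little. Phka1, its muscle regulatory subunit, fell from 42.7 and 40.2 to 31.8 and 33.9 CPM (log2 fold change -0.33, SE 0.08, adjusted p = 0.0136). Phkb, the shared beta subunit, rose from 110 and 100 to 125 and 127 CPM (log2 fold change 0.26, SE 0.08, adjusted p = 0.0334). The muscle catalytic subunit Phkg1 was near the detection limit at 0.449 and 0.237 against 0.651 and 0.602 CPM, short of the threshold (adjusted p = 0.0891). The other catalytic subunit, Phkg2, had 18.5 and 17.3 against 22.3 and 17.7 CPM, and the other alpha subunit, Phka2, 95.7 and 84.6 against 98.7 and 95.9 CPM; neither passed, and both were named after their values were seen. Leaving out a control ended the call for Pygm (adjusted p = 0.108 for replicate 1 and 0.0879 for replicate 2). Calls were also lost for Pygb without empty-vector replicate 2 (0.0671), for Phka1 without empty-vector replicate 1 (0.0747), and for Phkb without empty-vector replicate 2 (0.214) or C/EBPβ replicate 2 (0.0766).

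On the side of glycogen synthesis, the enzyme and its primer fell. Gys1, muscle glycogen synthase, had 183 and 168 CPM in the controls and 84.9 and 112 CPM with C/EBPβ (log2 fold change -0.84, SE 0.13, adjusted p = 0.00258). Gyg, glycogenin, the protein on which a glycogen particle is started, fell 1.66-fold from 66.8 and 70.1 to 39.3 and 43.3 CPM (adjusted p = 0.000344). Ugp2, which makes the UDP-glucose used by the synthase, rose from 165 and 184 to 227 and 228 CPM (log2 fold change 0.38, SE 0.09, adjusted p = 0.0108), a call lost without empty-vector replicate 1 (0.0889). Gbe1, the branching enzyme, stood at 20.9 and 19.7 against 19.0 and 21.0 CPM with overlapping groups.

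Among the regulators a pair rose from low levels. The product of Ppp1r3c (chr19:36731737-36736653) brings protein phosphatase 1 to glycogen and thereby favours its storage. Ppp1r3c had 14 and 12 fragments, or 0.314 and 0.237 CPM, in the controls and 7.29 and 5.22 CPM with C/EBPβ. This 22.8-fold rise (log2 fold change 4.51, SE 0.29, adjusted p = 2.59e-05) had the smallest p of the 34 genes, and the log2 fold change ran from 4.24 to 4.71 over the fits without 1 library. Pfkfb3 (chr2:11471433-11554077), whose product makes fructose 2,6-bisphosphate and so activates phosphofructokinase, rose from 4.51 and 4.17 to 12.9 and 11.7 CPM, 2.83-fold (SE of log2 0.13, adjusted p = 0.000117). Pfkfb1, the isoform of liver and muscle, was at 1.53 and 2.02 against 2.03 and 1.31 CPM and its groups overlapped. Pdk4, a kinase that shuts pyruvate dehydrogenase off, had 27.1 and 23.6 against 30.4 and 29.6 CPM (adjusted p = 0.0814), and Pdha1, the catalytic subunit it acts on, 443 and 471 against 417.6 and 422.7 CPM (adjusted p = 0.342).

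**Figure D3:**
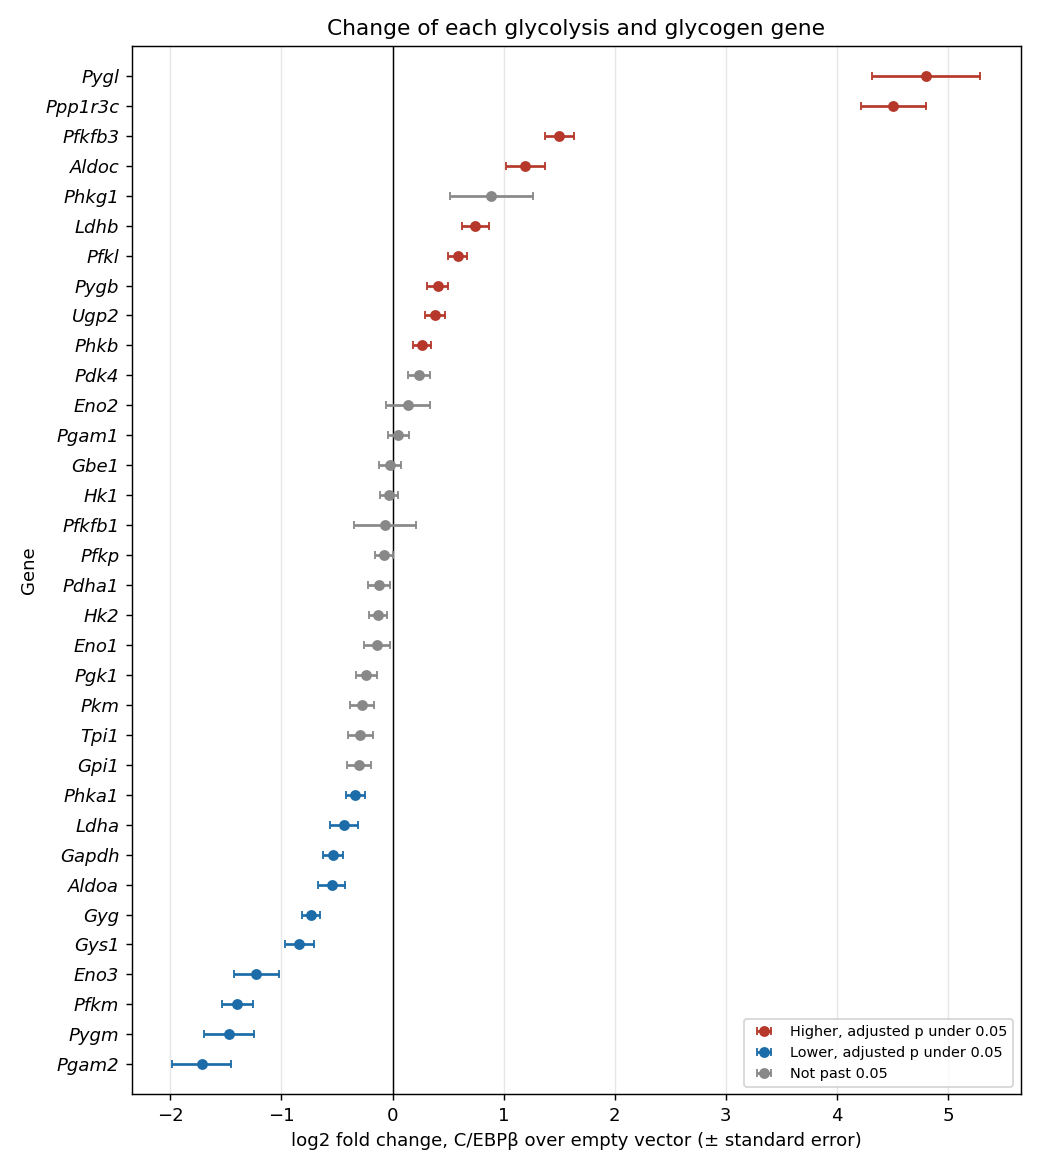
log2 fold change of each gene (C/EBPβ over empty vector, bars are the standard error), sorted; red and blue mark genes past an adjusted p of 0.05. Pygl and Ppp1r3c stand above 4, and Pgam2, Pygm, Pfkm and Eno3 lie below -1.

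The C/EBPβ replicates differed in most of these genes: 26 of 34 were higher in replicate 2, by a median log2 difference of 0.13 over the 34. All 10 genes that fell were higher in C/EBPβ replicate 2 than in replicate 1, by a median log2 difference of 0.34, and so nearer to the controls, as was the summed level of the differentiation genes given above. Of the 9 that rose 5 were higher in replicate 2, with a median of 0.00, and of the 15 that did not pass 11 were. Over all genes tested the median was -0.00276.

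Promoter windows of 5 genes are shown because they had the 3 lowest and 2 highest log2 fold changes among the 24 of 34 genes with a single annotated start outside the chromosomes not printed here. Each is the 250 bases before the start site, from RefSeq on GRCm38.p6, read 5′ to 3′ on the gene's strand: chr11:5803797-5804046 (minus) for Pgam2, chr19:6384158-6384407 (plus) for Pygm, chr11:70656926-70657175 (plus) for Eno3, chr12:70227684-70227933 (minus) for Pygl and chr19:36736605-36736854 (minus) for Ppp1r3c. Capitals mark matches, on either strand, to the myogenic E-boxes CAGCTG and CAGGTG, to a MEF2 core written CTANNNNTA, to the hypoxia response core ACGTG, or to the C/EBP form TTGCNNAA.
Pgam2: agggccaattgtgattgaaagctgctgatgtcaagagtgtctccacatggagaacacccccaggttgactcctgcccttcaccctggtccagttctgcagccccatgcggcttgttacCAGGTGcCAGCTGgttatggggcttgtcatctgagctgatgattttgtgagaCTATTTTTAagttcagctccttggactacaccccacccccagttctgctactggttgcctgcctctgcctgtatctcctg
Pygm: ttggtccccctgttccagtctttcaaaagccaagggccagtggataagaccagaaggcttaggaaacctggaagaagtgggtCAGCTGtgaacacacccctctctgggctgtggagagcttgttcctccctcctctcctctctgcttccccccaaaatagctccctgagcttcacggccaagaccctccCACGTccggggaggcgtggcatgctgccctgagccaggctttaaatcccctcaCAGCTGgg
Eno3: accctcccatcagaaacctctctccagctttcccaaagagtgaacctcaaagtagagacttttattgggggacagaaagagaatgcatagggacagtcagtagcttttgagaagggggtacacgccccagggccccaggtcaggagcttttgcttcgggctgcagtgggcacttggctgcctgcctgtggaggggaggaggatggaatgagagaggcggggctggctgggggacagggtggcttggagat
Pygl: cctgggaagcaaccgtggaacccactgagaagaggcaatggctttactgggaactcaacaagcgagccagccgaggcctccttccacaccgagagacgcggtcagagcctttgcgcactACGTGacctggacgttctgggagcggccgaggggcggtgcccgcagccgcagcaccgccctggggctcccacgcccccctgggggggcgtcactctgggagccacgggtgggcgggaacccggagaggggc
Ppp1r3c: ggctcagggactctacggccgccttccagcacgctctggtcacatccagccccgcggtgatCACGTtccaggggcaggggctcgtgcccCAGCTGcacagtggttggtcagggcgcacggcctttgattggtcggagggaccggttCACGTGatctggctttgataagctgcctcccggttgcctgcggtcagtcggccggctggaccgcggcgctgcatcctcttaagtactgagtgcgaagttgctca

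The Pgam2 window held CAGGTG and CAGCTG 132 and 125 bases before the start and a MEF2-type match 80 bases before it. Pygm held CAGCTG 168 and 8 bases before the start and the ACGTG core, read on the other strand, 61 bases before it, and Eno3 held none of the motifs searched. Pygl held ACGTG 131 bases before the start, and Ppp1r3c held a CAGCTG and 3 matches to the ACGTG core, of which 2 are the strands of one CACGTG. The C/EBP form occurred in none of the 5 windows. Over the 50 windows of all 34 genes, an E-box was found in 30.0%, against 27.7% of 32851 windows of all genes, the ACGTG core in 32.0% against 16.6%, the MEF2 core in 16.0% against 19.0% and the C/EBP form in 8.0% against 9.56%. By gene, at least 1 window held an E-box for 7 of the 10 fallers and 2 of the 9 risers, and ACGTG for 4 of 10 and 5 of 9. Of all 34 genes, 14 held an E-box and 13 ACGTG. Some genes have several windows and no share by gene was counted over all genes, so the shares by window are no background for these counts. These are matches of letters in short windows and were not tested.

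Genes around the pathway were read from a list of 75, of which 58 had enough fragments to be tested. Of these 13 rose and 12 fell, or 22.4% and 20.7%, shares close to those of all genes; the list's median was 0.04 on the log2 scale. Slc2a1, the basal glucose transporter, rose from 82.8 and 80.1 to 106 and 109 CPM (log2 fold change 0.40, SE 0.07, adjusted p = 0.00380). Slc2a4, the insulin-responsive transporter of muscle, fell from 4.22 and 4.17 to 1.44 and 2.52 CPM (adjusted p = 0.0107), a call lost without empty-vector replicate 2 (0.0622). These opposite changes concern a transporter of most cells and one of muscle and fat. Slc16a1, a lactate carrier, fell from 105 and 105 to 76.4 and 79.6 CPM (adjusted p = 0.00265), and Slc16a3, the lactate exporter of glycolytic cells, did not pass (log2 fold change -0.10). Named after their values were seen, the carriers Slc2a3 (1.43) and Slc2a12 (1.26) also rose, as did the glycolytic genes Adpgk (0.31) and Pfkfb2 (0.52), while Tigar fell (-0.42). The carrier Slc16a7, with 3 and 2 control fragments against 28 and 21, is counted among the 13 but was tested only through the C/EBPβ group. The same holds for Slc2a3, at 0.359 and 0.198 CPM in the controls against 0.861 and 0.602 CPM. Its empty-vector replicate 2 lay under the floor of 0.208 CPM.

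Of 18 other glycogen genes tested 3 were higher and 3 lower, against 22.3% and 20.9% of all genes tested. Pgm5, related to phosphoglucomutase and known as a cytoskeletal protein of muscle, fell 4.53-fold from 106 and 104 to 17.6 and 29.1 CPM (adjusted p = 0.00292), a call lost without either control (0.0793 and 0.0745). Ppp1r3b, a phosphatase targeting subunit like Ppp1r3c, rose from 1.68 and 1.68 to 2.93 and 3.42 CPM, and Epm2a, the glycogen phosphatase laforin, from 4.38 and 3.58 to 7.37 and 6.62 CPM. Both lost their calls without empty-vector replicate 2 (0.0543 and 0.0504). Pgm2, a phosphoglucomutase, did not pass (log2 fold change 0.13). Named after their values were seen, Gaa rose (0.46) and Stbd1 fell (-0.51).

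Of 12 genes of pyruvate transport and the dehydrogenase complex 1 rose and 2 fell, against 22.3% and 20.9% of all genes tested. The riser was Pdk1, a kinase that inactivates the complex, with 50.7 and 53.5 CPM against 80.3 and 84.9 CPM (log2 fold change 0.67, SE 0.08, adjusted p = 0.000393), while Pdk2 (0.17), Pdk3 (0.21) and the phosphatase Pdp1 (0.02) did not pass. The fallers, named after their values were seen, were the subunits Pdhb (-0.33) and Pdhx (-0.41). Of the 7 genes of the pentose phosphate pathway, which branches from glucose 6-phosphate, 3 rose and 1 fell, beside the same 22.3% and 20.9%. Tkt, transketolase, had 33.4 and 34.2 CPM in the controls and 76.3 and 73.5 CPM with C/EBPβ (log2 fold change 1.15, SE 0.07, adjusted p = 2.56e-05), and G6pdx, the first enzyme, 32.7 and 32.5 against 60.7 and 57.8 CPM (adjusted p = 0.000103). The others, also named after their values were seen, were Pgd, which rose (0.37), and Taldo1, which fell (-0.42). All 3 glycerol phosphate dehydrogenase genes fell, against 20.9% of all genes tested. Gpd2 (-0.26) and Gpd1l (-0.56) were named after their values were seen. Gpd1 went from 3.48 and 3.42 to 0.919 and 1.72 CPM (adjusted p = 0.00559). Of 16 genes of the hypoxia response outside glycolysis 6 rose (Hif1a, Ankrd37, P4ha2, Adm, Car9 and Mxi1) and 1, Egln3, fell (-0.93), against 22.3% and 20.9% of all genes tested.

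**Figure D4:**
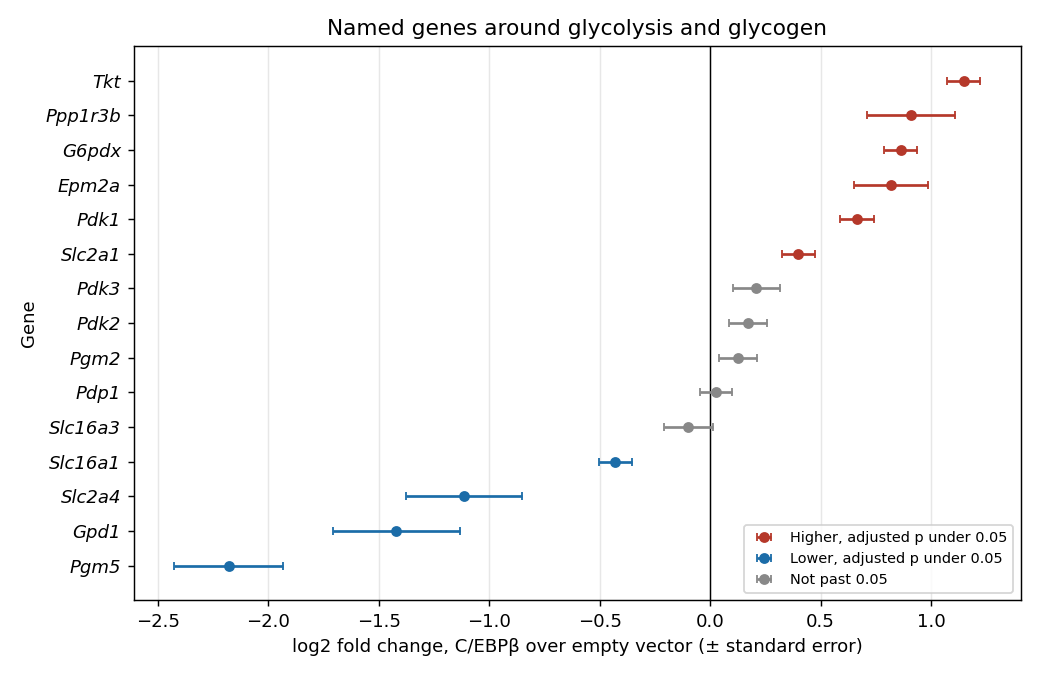
log2 fold change (C/EBPβ over empty vector, bars are the standard error) of neighbouring genes named by rule. Tkt stands highest at 1.15 and Pgm5 lowest at -2.18, and the genes in grey did not pass an adjusted p of 0.05.

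Of the 34 genes, 8 were higher and 14 lower in the authors' deposited table at an adjusted p under 0.05. All 22 of these genes had the same sign here and 18 of them also passed here. Sizes could differ: Pygl, the largest rise here at a log2 fold change of 4.80, stood at 3.45 in the authors' deposited table. Gpi1, Tpi1, Pgk1 and Pkm were lower in both and passed only there, with log2 fold changes of -0.37, -0.35, -0.30 and -0.34 in the authors' deposited table. Phkb passed here and not in the authors' deposited table, where its adjusted p was 0.0688.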

How the data were processed

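Stranded mRNA libraries were made from 4 C2C12 samples, 2 with empty vector and 2 with C/EBPβ, grouped by their titles. Counts of fragments over each gene, not normalised, were deposited. The submitters' processing notes name HISAT2 2.0.4, the build GRCm38 and featureCounts 1.4.6. Per the file headers, featureCounts 1.5.1 counted paired fragments on the reverse strand over GENCODE M12, with no option to keep fragments that map to several places. A table of results was also deposited by the authors, whose columns hold a normalised signal averaged over libraries, log2 fold changes, a test score and p-values. DESeq2 is in the submitters' processing notes, and the libraries behind that table are not given in the sources used here.

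Symbols were matched by Ensembl identifier in a gene name table (49326 of 49585 identifiers matched). Of 26401 genes with a fragment, 15886 passed filterByExpr (minimum count 10, total 15). Groups were compared with edgeR 4.0.16 (TMM, robust glmQLFit, glmQLFTest, 2-sided, Benjamini-Hochberg over all genes tested, threshold 0.05). Alternatives were DESeq2 1.42.0, limma-voom (limma 3.58.1), other scalings and filters, a replicate block and leaving out each library. Standard errors were taken from the F statistic. The biological coefficient of variation was 9.42%. Replicates were no copies of each other (chi-square per degree of freedom 18.2 and 25.9).

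The 34 genes, the lists and the tests were chosen with earlier results of these data known. Named neighbours were the 4 largest rises and falls past the threshold (mean of at least 1 CPM, groups apart) and 10 fixed genes, of which 1 is not reported here. On simulated counts (15788 genes, this comparison) the test recovered 70.1% of genes changed 1.5-fold and 100% of those changed 2-fold or 4-fold. The simulation gave every gene the same spread and changed only 67, 67 and 66 genes at these folds, all with many fragments. It does not show the recovery of genes with few fragments or a wider spread, or where many genes change.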

Additional observations from a re-analysis of the deposited data

How the results depend on the processing

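With 2 libraries a group, single libraries weighed most. Over the fits without 1 library, in which a lone library is assumed to vary like the other group, 4005 to 7414 genes changed in all and 6 to 14 of the 34 genes fell, the lowest without empty-vector replicate 2 and the highest without C/EBPβ replicate 2. None of the 19 calls was lost in the fits of all 4 libraries, although Pygl was not tested under a filter at 1 CPM, and 6 more genes (Eno2, Gpi1, Pdk4, Pgk1, Pkm and Tpi1) passed in at least 1 alternative. The replicate block gave 7677 genes, with 10 of the 34 higher and 13 lower; Gpi1 (adjusted p = 0.0333), Tpi1 (0.0384), Pgk1 (0.0310) and Pdk4 (0.0447) passed with it. The names of the deposited files share a number between same-numbered replicates, but the labels do not say that it marks a shared culture, and the replicate differences of the groups correlated at 0.19 across genes, which are not independent replicates. Genes that did not pass and changed sign were Hk1 (log2 fold change 0.020) and Gbe1 (0.032) with library sizes alone, and, as ranges without 1 library, Pgam1 (-0.032 to 0.13), Eno2 (-0.084 to 0.40), Gbe1 (-0.11 to 0.050), Pfkfb1 (-0.44 to 0.17), Slc16a3 (-0.27 to 0.044) and Pdp1 (-0.020 to 0.054). Without scaling by gene length, the difference in share was -19.1 in place of -13.0 percentage points for Eno3, -2.37 in place of -4.67 for Ldha and -0.389 in place of -0.448 for Aldoa. Depth limits Pygl and Phkg1, both near 1 CPM or below, and the fold of Ppp1r3c, whose controls held 14 and 12 fragments.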
